A study of Mus musculus with 4 samples.

Results

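The genes of 9 chemokine receptors were examined in the accessible chromatin of mouse natural killer (NK) cells: Cxcr3, Cxcr4, Cxcr6, Cx3cr1, Xcr1, Ccr1, Ccr2, Ccr3 and Ccr9. A region of accessible chromatin was counted for one of them when no other protein-coding gene lay closer, measured to the ends of the gene and counted as 0 inside it. By this rule 93 of the 91266 deposited regions belonged to the receptors. Of these, 40 lay nearest to Cxcr4, 43 nearest to the 6 receptors of the chromosome 9 cluster (Ccr9, Cxcr6, Xcr1, Ccr1, Ccr3 and Ccr2, treated as one block), 6 nearest to Cx3cr1 and 4 nearest to Cxcr3.

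Wild-type C57BL/6 NK cells, described as splenic in the study's title, had been cultured with interleukin-15 (IL-15) at a low or a high dose for 72 h, with 2 biological replicates per dose. The dose concentrations are not in the labels. The assay was ATAC-seq, which uses a transposase to cut and tag open DNA, with about 75000 cells per replicate. IL-15 is the cytokine on which NK cells depend, and the study compared accessibility between its doses. The tables analysed give the positions of accessible regions, pooled over all cultures, and the authors' lists of those that differed, named up and down. They hold no value for a single culture, so no replicate error, depth, fold change or test of the doses can be given, and every up or down call is the authors'. Which dose was the reference is not stated, and neither list is assigned to a dose here.

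Chemokine receptors are membrane-spanning proteins coupled to inhibitory G proteins. They sense gradients of small secreted chemokines and steer migrating leukocytes. In NK cells, CXCR4 binds CXCL12 and is known for holding cells in the bone marrow, CXCR3 guides cells to inflamed tissue, CXCR6 is a marker of liver-resident cells, and CX3CR1 marks mature circulating cells. CCR1 and CCR2 respond to inflammatory CC chemokines. XCR1, CCR3 and CCR9 are best known from cross-presenting dendritic cells, eosinophils and gut-homing lymphocytes, respectively.

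The labelled cell type was checked at start sites of marker genes. A region lay over the start site of 10 of the 10 NK cell markers whose start site was given, Ncr1, Gzma and Eomes among them. The corresponding counts were 1 of 5 for T cells (Cd5, with none at Cd3e, Cd3d, Cd3g or Cd8a), 0 of 2 for B cells, 2 of 4 for myeloid cells (Cd68 and Itgam) and 0 of 3 for erythroid cells. Over all protein-coding genes, 52.3% of 21263 start sites lay in a region, against 3.19% and 3.22% after the sites were moved by 100 kb in either direction.

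Of the 9 receptors, 5 had a region over the annotated start site: Cxcr3, Cxcr4, Cxcr6, Cx3cr1 and Ccr1. The promoter sequence covered by these regions, up to the base before the start site, is shown because it is the part of the receptor loci at which accessibility and sequence can be read together. Sequences are from RefSeq, build GRCm38.p6, 5′ to 3′ on the strand of the gene. Capitals mark matches on either strand to TGTGGT (the core bound by RUNX factors, reading ACCACA on the other strand), AGGAAG (ETS factors, CTTCCT on the other strand), CCACCC and CCGCCC (KLF and SP factors).
Cxcr3, chrX:101734148-101734397, minus strand: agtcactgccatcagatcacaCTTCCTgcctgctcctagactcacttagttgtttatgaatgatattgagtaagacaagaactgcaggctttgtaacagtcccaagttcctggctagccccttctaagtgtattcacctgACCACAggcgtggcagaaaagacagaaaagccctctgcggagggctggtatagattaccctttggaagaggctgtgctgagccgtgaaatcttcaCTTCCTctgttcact
Cxcr6, chr9:123806294-123806476, plus strand: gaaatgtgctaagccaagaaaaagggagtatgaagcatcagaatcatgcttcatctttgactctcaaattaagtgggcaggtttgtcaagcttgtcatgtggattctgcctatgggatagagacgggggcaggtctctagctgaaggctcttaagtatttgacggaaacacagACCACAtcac
Cx3cr1, chr9:120068297-120068546, minus strand: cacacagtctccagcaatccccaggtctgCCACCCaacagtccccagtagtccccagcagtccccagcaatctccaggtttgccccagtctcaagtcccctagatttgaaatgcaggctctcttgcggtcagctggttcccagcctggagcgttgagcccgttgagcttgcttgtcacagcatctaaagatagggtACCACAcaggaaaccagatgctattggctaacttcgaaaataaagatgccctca
Ccr1, chr9:123968693-123968905, minus strand: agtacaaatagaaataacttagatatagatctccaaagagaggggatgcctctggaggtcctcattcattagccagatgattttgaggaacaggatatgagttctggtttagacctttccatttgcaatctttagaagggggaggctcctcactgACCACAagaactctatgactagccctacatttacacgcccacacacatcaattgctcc
Cxcr4, chr1:128592300-128592549, minus strand: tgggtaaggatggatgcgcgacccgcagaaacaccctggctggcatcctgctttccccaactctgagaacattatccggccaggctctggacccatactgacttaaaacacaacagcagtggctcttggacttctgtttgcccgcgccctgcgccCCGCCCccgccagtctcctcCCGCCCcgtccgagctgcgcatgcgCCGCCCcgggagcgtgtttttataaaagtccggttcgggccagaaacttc

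The RUNX core was found in 4 of the 5 covered promoters, those of Cxcr3, Cxcr6, Cx3cr1 and Ccr1, and in none of the other receptors within the 250 bases before the start site. In all 4 it was read on the strand opposite to the gene. The match began 10 bases before the start site in Cxcr6, 54 in Cx3cr1, 58 in Ccr1 and 110 in Cxcr3. Among all 21263 promoters 12.4% held the motif on either strand, and among the 11126 with a region over the start site 10.6% did, 5.79% with it on the opposite strand. The motif was 1 of 11 searched, and it was singled out after the matches were seen. A match is a description of the sequence and does not show binding.

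The promoter of Cxcr4 had a different base composition. Its 250 bases held 19 CpG dinucleotides, against a median of 10 over all promoters and 0 to 5 in the other 8 receptors, and its G+C content was 61.2%, against 37.2% to 53.6%. At least 19 CpG were found in 26.1% of all promoters. CCGCCC occurred 3 times, at 95, 75 and 50 bases before the start site, and in no other receptor promoter. It was present in 42.6% of all promoters and in 62.6% of those with a region over the start site. Of the remaining motifs, AGGAAG was found in Cxcr3 and Ccr9 (28.5% of all promoters), CCACCC in Cx3cr1 and Ccr9 (30.2%), and TGANTCA (AP-1) in Ccr3 (6.13%). AGGTGTGA (T-box factors), TTCNNNGAA (STAT factors), TTCCNGGAA (STAT5), CTTTGAA (TCF and LEF), the interferon regulatory factor motif and the NF-kB motif were in 0 of the 9 promoters. They occur in 0.997%, 6.58%, 0.950%, 4.05%, 2.96% and 0.146% of all promoters.

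Among the 93 receptor regions, 3 were in the authors' down list and 0 were in the up list. The down share was 3.23% (exact binomial 95% interval 0.670 to 9.14%), against 1.40% of all regions, and the interval includes the background. For the up list the background was 4.21%, and 0 of 93 regions allows a share of up to 3.23% by the limit of 3 counts. The exact interval reached 3.89%, and both bounds are below the background. This count of 0 depends on the rule of assignment, since 2 up regions inside Fyco1, described with Cxcr6, were within 10 kb of a receptor. Counting every region in a receptor gene or within 10 kb gave 2 up of 44 regions. Within 50 kb there were 4 up of 109, so the low up share did not hold under every rule. The down count depends on it too: 0 down regions lay within 10 kb of a receptor and 1 within 50 kb, and 1 was left when genes of any biotype competed. The intervals cover counting error only and treat neighbouring regions as independent, which they are not. All 3 down regions belonged to Cxcr4. Cxcr3, Cx3cr1 and the chromosome 9 block had none in either list. The plot of list shares sets these values beside the full list and beside other genes of the chemokine system.

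**Figure D1:**
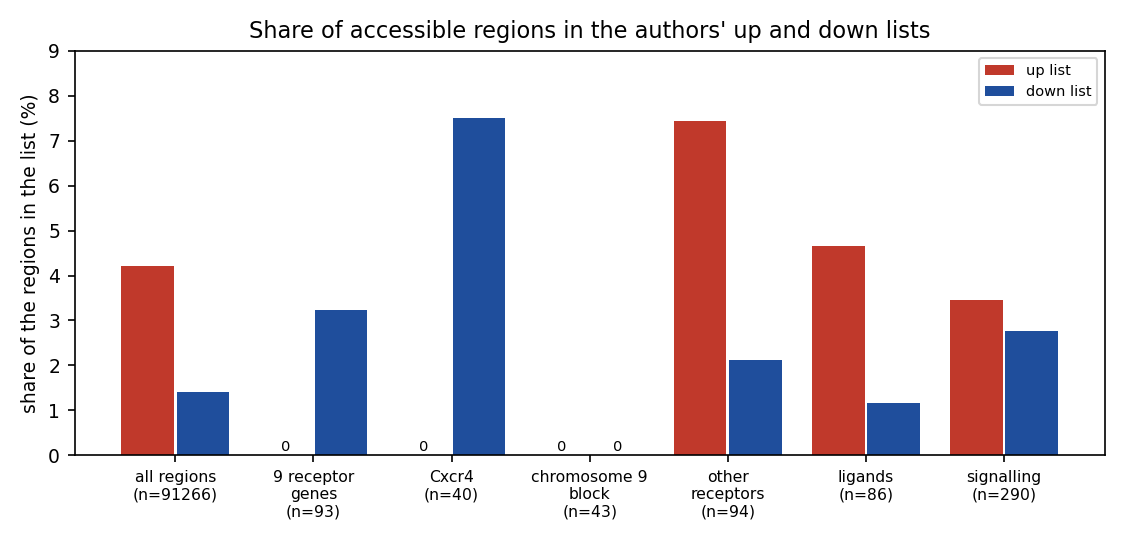
Share of accessible regions in the authors' up list (red) and down list (blue), in percent of the regions assigned to each set, with the number of regions in brackets. The 9 receptor genes had 0 up and 3.23% down, all of it from Cxcr4 at 7.5%, against 4.21% and 1.40% of all regions.

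Cxcr4 occupies chr1:128588199-128592299 on the minus strand. It had 40 regions, 43.0% of those of all 9 receptors. The median protein-coding gene with any region had 3, and 109 of 16393 such genes (0.665%) had 40 or more. The distance to the next protein-coding gene was 681 kb on the upstream side (Thsd7b) and 171 kb on the downstream side (Dars). Upstream lay 35 of the 40 regions, 3 lay downstream, 1 covered the start site and 1 was elsewhere in the gene. The farthest was 283 kb from the start site, and 28 were more than 50 kb from the gene. Spread over this distance, the regions of Cxcr4 had a median gap of 4172 bp. The 6906 bp of the full list is not a like measure, since it also counts gaps between regions of different genes. Gaps within the other receptors with more than 1 region had medians of 1641 to 4597 bp, so a short gap was not particular to Cxcr4.

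The promoter of Cxcr4 was in neither list. The region over its start site was 954 bp wide (chr1:128591856-128592809). It was flanked by an unlisted region of 926 bp inside the gene and one of 490 bp that began 732 bp upstream. The 3 down regions were all intergenic and upstream. The nearest was 1356 bp wide at chr1:128614421-128615776, 22.1 kb from the start site. The second measured 495 bp at chr1:128745936-128746430, 154 kb away, and the third 620 bp at chr1:128782054-128782673, 190 kb away.

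The first of these was the second widest of the 40 regions, behind an unlisted region of 1513 bp at chr1:128831972-128833484, and only 1.25% of the authors' down list was as wide. The other 2 ranked 17 and 13 of 40 by width, and 56.9% and 36.9% of the down list was as wide. The 37 unlisted regions of Cxcr4 had a median width of 455 bp (range 164 to 1513 bp), so the listed and unlisted widths overlapped. The down regions did not adjoin each other. Between the first and the second lay 130 kb with 14 regions, and between the second and the third 35.6 kb with 4 regions, none of the 18 listed. The regions flanking each of them were 2.06 to 7.34 kb away and unlisted.

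Within Cxcr4 the down share was 7.5% (exact binomial interval 1.57 to 20.4%), set beside 1.40% of all regions, but Cxcr4 was singled out from 9 genes after its count was seen and no test was made. The shares of the lists also varied with distance from genes, without a steady trend. Of all regions more than 100 kb from their nearest protein-coding gene, 2.69% were down and 5.64% were up, against 1.36% and 3.42% inside genes. Between these, the down share was 1.002% up to 10 kb, 1.32% from 10 to 50 kb (the class of the down region at 22.1 kb) and 1.504% from 50 to 100 kb. The up share was 4.40%, 5.92% and 6.83% in the same classes. All 24 receptor regions beyond 100 kb belonged to Cxcr4, and 2 of them were down. The part of distance in the count was not tested. Over all genes, 884 had a down region, 89 had 3 or more, and 66 of these had 0 up regions, as Cxcr4 did.

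**Figure D2:**
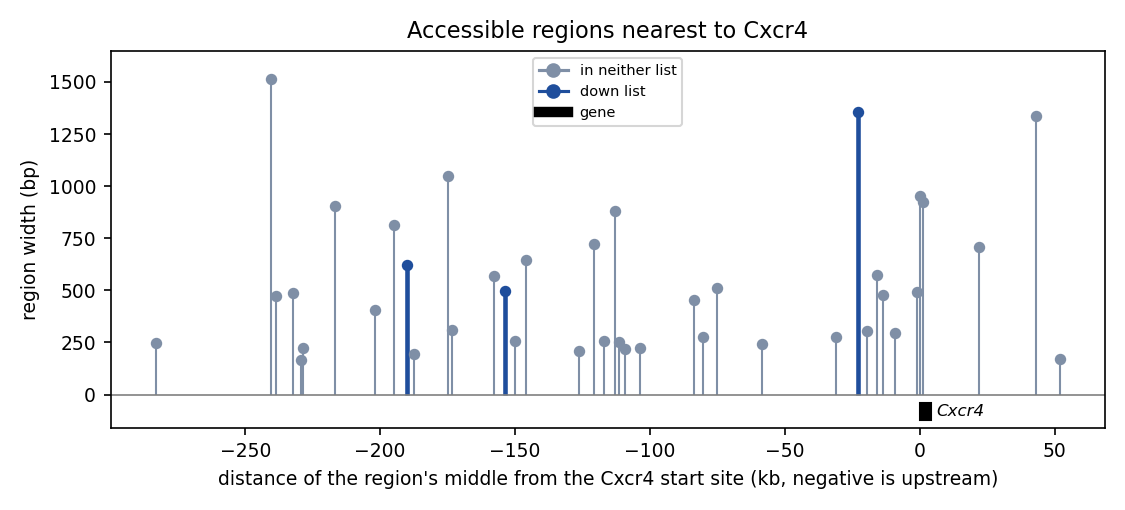
The 40 regions nearest to Cxcr4, each a line at the distance of its middle from the Cxcr4 start site (kb, negative is upstream) with its width (bp) as height. The 3 regions of the down list (dark blue) lie upstream, their middles at -22.8, -154 and -190 kb, with unlisted regions (grey) between them and over the start site (954 bp).

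The assignment of the distant regions to Cxcr4 rests on the choice of competing genes. With genes of every biotype, 18 of the 40 regions went to other genes, 16 of them to the small nuclear RNA gene Gm23056. The down regions at 154 and 190 kb were among these, although Gm23056 was itself 139 and 103 kb away from them. The down region at 22.1 kb stayed with Cxcr4. No region in the up list was assigned to Cxcr4. The nearest up region lay 189 kb from the gene on its downstream side, with Dars as its nearest gene. By the numbers of regions, up regions and down regions, the genes most like Cxcr4 were Rasa1 (41, 0 and 3, a Euclidean distance of 1), Jak1 (40, 1 and 2) and Chst11 (39, 0 and 2), the latter pair at a distance of 1.41. No other gene was as close.

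The chromosome 9 block spans 342 kb, chr9:123767211-124109140, from Ccr9 to Ccr2. Its 6 receptors had 43 regions, of widths from 150 to 1245 bp with a median of 394 bp, close to the 400 bp of all regions. None of the 43 was in either list. A count of 0 allows a share of up to 6.98%, which is above the 5.61% of all regions that were listed. A share at the background could not have been told from 0 at this number of regions. Only 9 of the 43 lay within a receptor gene, and 2 covered an annotated start site. Exons and introns were not annotated.

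At the left end of the block, Ccr9 (chr9:123767211-123783457, plus strand) had 4 regions and none over its start site. Upstream lay 3 of them, at 3.04, 5.71 and 12.4 kb, with widths of 448, 693 and 673 bp. The fourth, of 224 bp at chr9:123768495-123768718, was inside the gene, 1.28 kb past the start site. With genes of every biotype, the 3 upstream regions were nearer to the long noncoding RNA gene Gm17021.

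Cxcr6 (chr9:123806477-123811754, plus strand) lies inside the span of a larger gene, Fyco1, and had 1 region, over its start site, of 421 bp at chr9:123806294-123806714. Xcr1 (chr9:123852315-123862029, minus strand) also had 1, of 608 bp at chr9:123872016-123872623, which was 9.99 kb upstream of its start site. No region lay within Xcr1, and the next region was 50.5 kb beyond its only one. The region of Cxcr6 was also inside Fyco1, and the tie went to Cxcr6 as the gene with the nearer end. Other regions inside Fyco1 were assigned to Fyco1. The Fyco1 regions numbered 9, with widths from 168 to 1450 bp. The widest, unlisted at chr9:123850850-123852299, ended 0.016 kb from Xcr1 and 9.73 kb from its start site. Unlisted regions of 239 and 819 bp lay 0.111 and 2.39 kb past the end of Cxcr6, and one of 278 bp lay 3.25 kb before its start site. The low counts of Cxcr6 and Xcr1 therefore rest on the assignment of these regions to Fyco1. Of the 9 Fyco1 regions, 2 were in the up list. One, of 241 bp at chr9:123818688-123818928, was 6.93 kb past the end of Cxcr6 and 12.2 kb from its start site. The other, of 557 bp at chr9:123845016-123845572, was 6.74 kb from the nearer end of Xcr1 and 16.5 kb from its start site. They were the only listed regions between the first and the last gene of the block, 2 of 49 (4.08%), against 4.21% of all regions in the up list. Counting every region within 10 kb of a receptor gives the block 2 up regions in place of 0.

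**Figure D3:**
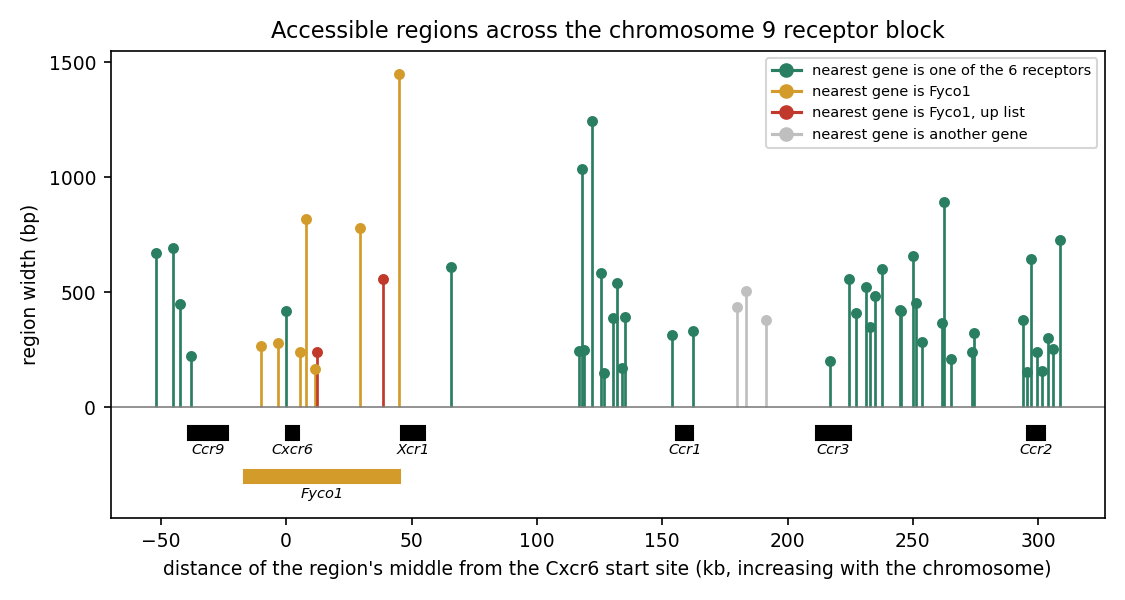
Regions across the chromosome 9 block, each a line at the distance of its middle from the Cxcr6 start site (kb) with its width (bp) as height, above boxes for the 6 receptor genes and Fyco1. The 43 receptor regions (green) are unlisted, and the 2 regions of the up list (red, 241 and 557 bp) lie in Fyco1 between Cxcr6 and Xcr1.

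The inflammatory receptors Ccr1, Ccr2 and Ccr3 held 37 of the block's 43 regions, and most lay in intergenic stretches. Ccr1 (chr9:123962126-123968692, minus strand) had 12. Its start site was covered by a region of 333 bp at chr9:123968573-123968905. A further 10 formed a run beyond the other end of the gene, 20.4 to 38.7 kb away. They covered 27.0% of a stretch of 18.6 kb, and included the widest of the 43 receptor regions of the block, 1245 bp at chr9:123928034-123929278. With genes of every biotype all 10 were nearest to the long noncoding RNA gene Gm51701.

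Ccr3 (chr9:124017825-124031692, plus strand) had 12 regions and none over its start site. The nearest was 200 bp wide at chr9:124023145-124023344, 1.17 kb past it. Outside the gene lay 10, all on the downstream side, in a stretch of 26.9 kb that faces Ccr2. The widest was 660 bp at chr9:124056194-124056853. Ccr2 (chr9:124101918-124109140, plus strand) had 13 regions with the smallest median width of the receptors that had more than 1 region, 303 bp, of which 6 were upstream, 4 within the gene and 3 downstream. The region nearest to the annotated start site was 155 bp wide at chr9:124101813-124101967 and ended 216 bp before it. It overlapped the first base of the gene's span, which lies further upstream than that start site. The widest was 891 bp at chr9:124068266-124069156, 33.0 kb upstream.

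The interval between Ccr3 and Ccr2 was the densest of the block, with 16 regions in 70.2 kb, or 2.28 per 10 kb. All 16 were assigned to these receptors, 10 to Ccr3 and 6 to Ccr2. The interval between Xcr1 and Ccr1 held 12 in 100.1 kb, or 1.20 per 10 kb. Over the span of the block the density was 1.43 per 10 kb and the median gap 2771 bp, against 6906 bp in the full list. None of the regions in these intervals was listed. The nearest down region to the block was 147 kb beyond Ccr2, 1735 bp wide at chr9:124256282-124258016.

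Cx3cr1 also lies on chromosome 9 but outside the block, at chr9:120048683-120068296 on the minus strand. Its 6 regions were unlisted. One of 463 bp covered the start site (chr9:120068107-120068569), and the widest, of 847 bp at chr9:120054633-120055479, was inside the gene, 12.8 kb from the start site. Another pair of 307 and 291 bp lay within the gene, one of 350 bp was 4.87 kb upstream, and one of 712 bp was 8.67 kb beyond the other end. The nearest up region was 35.6 kb from the gene, with Xirp1 as its nearest gene, and the nearest down region was 3009 kb away.

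Cxcr3, on the X chromosome at chrX:101731535-101734147 on the minus strand, had 4 regions, all within 10 kb of the gene and all unlisted. A region of 636 bp covered the start site (chrX:101733781-101734416). The widest, of 842 bp at chrX:101737011-101737852, was 2.86 kb upstream. The remaining 2, of 281 and 195 bp, lay across and beyond the other end of the gene. The nearest up region was 26.1 kb away, with Gm52429 as its nearest gene, and the nearest down region was 466 kb away.

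**Figure D4:**
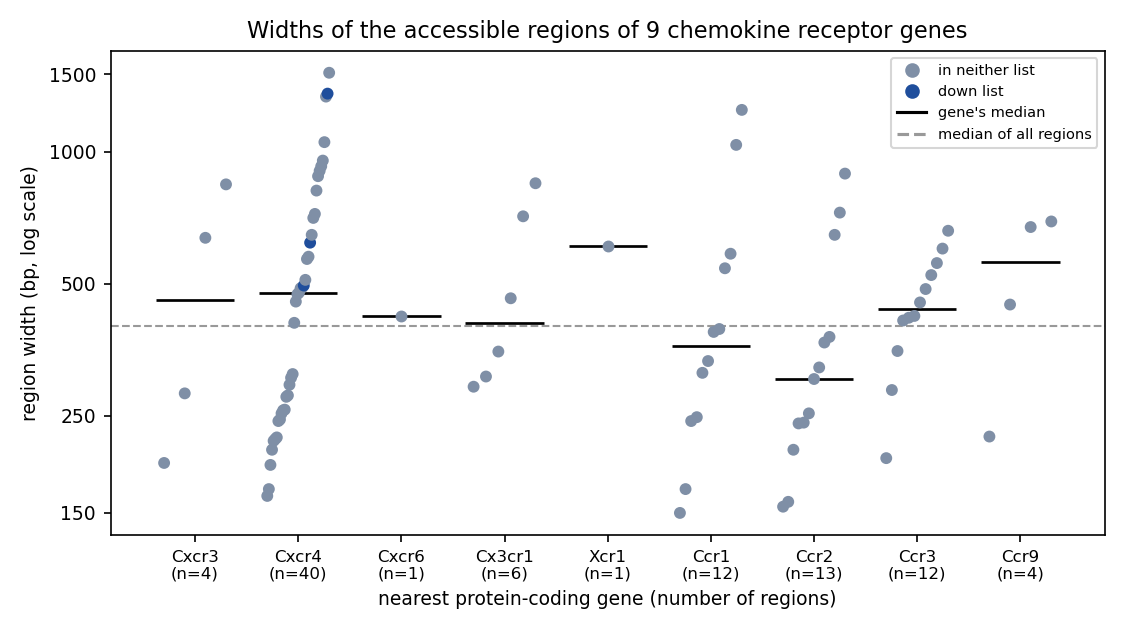
Width of each of the 93 regions (bp, log scale) by receptor gene, with the number of regions in brackets, the gene's median (black line) and the median of all regions (400 bp, dashed). The down regions (dark blue) are 3 of the 40 at Cxcr4, and the widest of them (1356 bp) is exceeded by 1 unlisted region of that gene.

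The 93 regions had a median of 418 bp (range 150 to 1513 bp), against 400 bp over all regions. Widths over 1000 bp were found in 6 of them, 4 at Cxcr4 and 2 at Ccr1. Among the genes with at least 4 regions, medians ran from 303 bp at Ccr2 to 560.5 bp at Ccr9, and their ranges all overlapped. By position, 18.3% of the receptor regions lay inside their gene and 25.8% more than 100 kb away, against 61.1% and 6.10% of all regions. The second of these shares came from Cxcr4 alone, and all 9 receptors are short genes of 2.61 to 19.6 kb.

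The other receptors of the family were read in the same way. The 16 further genes had 94 regions, 7 of them up (7.45%) and 2 down (2.13%), against 4.21% and 1.40% of all regions. Of the 16, 15 had a region, and 12 had none listed, a count that includes Ackr1 with 0 regions. Ccr4, a receptor for CCL17 and CCL22, had 5 of its 6 regions in the up list. The widths of the 5 were 302, 261, 571, 365 and 661 bp, and the first covered the start site (chr9:114496496-114496797). Ccr4 was singled out after its count was seen. Ackr2 had 1 up region of 4, Cmklr1 had 1 up and 1 down of 18, and Ccr7, which directs cells to lymph nodes, had 1 down of 19, at 15.6 kb from the gene.

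Among ligands of the 9 receptors, 18 of the 19 genes were matched by name and 15 had a region, 86 in all, with 4 up (4.65%) and 1 down (1.16%). Cxcl12, the ligand of CXCR4, had 1 up region of 10, at 1.25 kb from the gene. Cx3cl1 had 1 up of 7, Xcl1 had 1 up of 25 and Ccl2 had 1 up of 3, while Ccl4, a chemokine that NK cells secrete, had 1 down of 4. Of 24 genes of signalling below the receptors, all with regions, 17 had none listed. Their 290 regions included 10 up (3.45%) and 8 down (2.76%). Rgs3, a regulator that shortens G protein signals, had 7 up and 3 down of 49. Rgs1, which limits the response to chemokines, had 1 down of 28. The shares of all regions were 4.21% up and 1.40% down, and no test of either set was made. Rgs3 alone gave 7 of the 10 up and 3 of the 8 down regions of the signalling genes. Over all genes with a region, 20.1% had at least 1 listed. Some of these genes are neighbours, and the counts are a description.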

How the data were processed

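ATAC-seq was performed on 4 cultures, 2 per IL-15 dose, grouped by the dose in their titles. Per the submitters' processing notes, the build was mm10 and BWA, ArchR, MACS2 and HOMER 4.11.1 were used. Their roles, the way peaks were called over samples, the differential test and its threshold are not given in the sources used here. The deposited tables hold region positions and widths in bp and the authors' up and down lists, with 0 columns of values per sample. The planned test of the doses could not be made, and the depth is unknown.

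Starts in the full list are 0-based and were raised by 1. Each listed region was then identical to one of the 91266. Gene spans (21900 protein-coding genes), start sites and promoter sequences (250 bases before the start) are from RefSeq GRCm38.p6, which shares its coordinates with mm10. Ties in distance went to the gene with the nearer end. The code for assignment was checked on simulated regions. Of those planted beside genes without an overlapping neighbour, 2415 of 2415 were given the right gene and distance. For 300 of 300 random regions the gene was the same as by a second, slower coding of the same rule. This checks the code and not the choice of rule. No genome sequence was used, so motifs were searched in promoters and not in whole regions. Intervals are exact Clopper-Pearson intervals (95%, scipy 1.17.1), computed with Python 3.11.15, and a count of 0 is given the limit of 3 counts. All regions were used, with no filter. Named regions are those listed, the widest and the one nearest to the start site of each receptor. The receptors, gene lists and motifs were chosen with earlier results of these data known. Alternatives were other rules of assignment, merging of regions, a minimum width, and leaving out each receptor.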

Additional observations from a re-analysis of the deposited data

How the results depend on the processing

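Over 5 counts, 52 alternatives were computed and 39 gave the reported count or one within 1.5 times of it. Many of the 39 could not have differed, so their number is no measure of robustness. Leaving out a receptor without a listed region cannot change a count of listed regions. Matching to the lists by overlap could not either, as each listed region was identical to a deposited one. Counting every region in a receptor gene or within 10 kb gave 44 regions in place of 93, with 2 up (both in the block) in place of 0 and 0 down in place of 3. Within 50 kb there were 109 regions, with 4 up (2 in the block) and 1 down. With genes of any biotype competing there were 60 regions and 1 down. By the nearest start site, a choice made after seeing the data, 1 up region was counted, in the block. Every region between the first and the last gene of the block included 2 up. Without Cxcr4, 0 down regions were left. Under genes of any biotype the receptors lost 18 regions at Cxcr4, 10 at Ccr1, 3 at Ccr9 and 1 each at Xcr1 and Cx3cr1. The up regions gained within 50 kb were 2 in Fyco1, 1 near Cxcr3 (26.1 kb) and 1 near Cx3cr1 (35.6 kb).

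No paired analysis was possible because no column of the tables belongs to a single culture. For the same reason the dose test and its alternatives (DESeq2, no filter, each replicate left out, the replicate block) were not run, and the search of the central 200 bp of regions for motifs was not run for want of a genome sequence. Precision is limited by the number of regions, and 0 of 43 or 0 of 93 cannot show that a locus did not change.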
